A study of Danio rerio with 16 samples.

Results

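The genes described here are the enzymes of amino acid, polyamine and nucleotide metabolism, with the small proteins that regulate them, as measured in the fast muscle of adult zebrafish that were or were not trained by swimming. Members were taken by name: a probe belonged to the set if the RefSeq accession in the scanner files mapped to a zebrafish symbol of a fixed list of enzyme families, such as aminotransferases, ornithine decarboxylase, AMP deaminases and nucleoside diphosphate kinases. The rule used no measured value. It found 73 probes of 49 genes, out of 43803 non-control probes, of which 9104 carried 5952 RefSeq symbols. A further 38 of the 87 reference symbols that match the rule had no named probe and were not analysed here.

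The study asked how swimming training changes the fast muscle of adult fish. Exercised fish (n = 8) were made to swim against a current of 0.4 m/s for 6 h a day over a period of 20 days, whereas non-exercised fish (n = 8) were kept at 0.1 m/s. All were wild-type adults bought from a pet shop, with no stated genetic change, and each fish gave 1 RNA extract of dorsal epaxial fast muscle and 1 single-colour Agilent array. Each group lived in 1 swim tunnel, so that tunnel and training cannot be told apart, and each of the 4 slides carried 4 arrays of 1 group only (slides 3 and 4 exercised, slides 1 and 2 non-exercised).

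These pathways are linked. Fast muscle deaminates AMP during hard contraction and rebuilds it through adenylosuccinate in the purine nucleotide cycle, which releases ammonia that glutamine synthetase can trap. Ornithine decarboxylase makes putrescine, the first polyamine, and is held in check by antizymes, while the methionine cycle supplies methyl groups for creatine synthesis and other reactions.

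Values are log2 signals relative to the 75th percentile of the array, so that 1 unit is a doubling, and they can be compared between fish for a probe but not between probes. Fold changes are exercised minus non-exercised on that scale, and the brightest probe stands for its gene. A gene was called where the adjusted p of limma, over all 43803 probes, was under 0.05. In bulk tissue, fewer cells of a type and less RNA per cell cannot be told apart. Detection, counted as the percentage of probes flagged well above background, was 21.1% to 54.0% (median 40.1%) in exercised and 33.7% to 48.5% (median 41.7%) in non-exercised fish (exact permutation test, two-sided, p = 0.524). The exercised slides differed, with 44.1% to 54.0% on slide 3 and 21.1% to 36.1% on slide 4, and the median of all probes against the non-exercised fish was -0.30 on slide 3 and 0.61 on slide 4. Of 14 listed fast muscle markers 9 were measured. Of these 9, 7 were higher in mean in exercised fish (median log2 fold change 0.63), a difference between groups that does not test the tissue label. With outlier spots left out, pvalb1 had values of 5 exercised and 3 non-exercised fish, ckma of 6 and 4, and actn3b of 7 and 4. With those spots included, the mean level of the 9 markers per fish was 4.81 to 6.75 in exercised and 5.42 to 7.53 in non-exercised fish. Of these markers, 8 were detected on arrays of both groups, and tnnt3a, a fast troponin T, was detected on none of the exercised and 7 of the non-exercised arrays and was called lower (at least 2.10-fold, against the lowest signal well above background; limma, adjusted p = 0.0135).

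Exercise training went with few called changes among these enzymes. Ornithine decarboxylase (odc1), CTP synthase (ctps1a) and the purine synthesis enzyme paics were lower in exercised fish, and the nucleoside diphosphate kinase family member nme6 was higher. These were 4 of the 49 member genes (8.16%), with 1 higher (2.04%) and 3 lower (6.12%), beside 6.23% of the brightest probes of all named genes called in either direction, 3.23% higher and 3.01% lower. Among all probes 6.37% were called. In this fit the share of members called was close to that of all named genes. With the slide as a random block limma called none of the 49 genes (1 higher and 4 lower at an unadjusted p under 0.05), beside 0.0504% of named genes. With cyclic loess as the scaling 5 members were higher and 4 lower, beside 2674 higher and 1549 lower of all 43803 probes. At an unadjusted p under 0.05 there were 14 member genes (28.6%), 7 higher and 7 lower, beside 23.0% of all named genes. The median log2 fold change over the 49 genes was 0.01, beside 0.07 over all named genes and 0.26 over all probes.

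**Figure D1:**
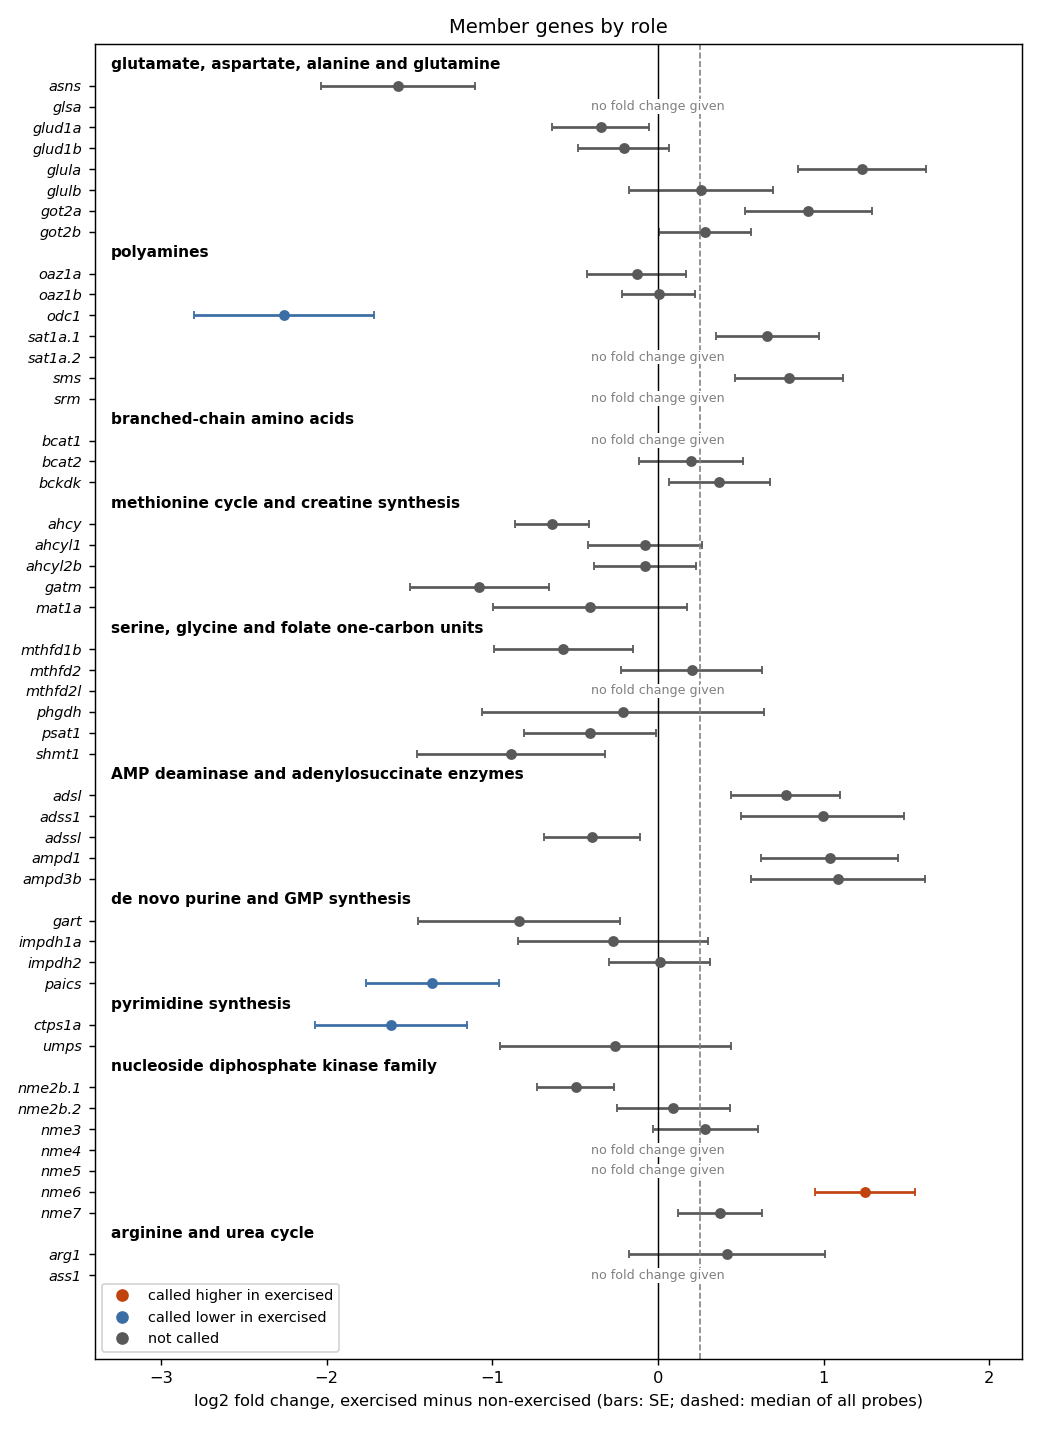
Log2 fold change of each member gene (x axis, exercised minus non-exercised; bars are the standard error) by role, with the median of all probes (0.26) as a dashed line. Called genes are coloured: odc1, ctps1a and paics lie to the left, nme6 to the right, and 8 genes whose brightest probe was not well above background in 1 or both groups have no point.

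In the polyamine group, odc1, the enzyme that turns ornithine into putrescine, had the most negative fold change of the 49 genes. Its signals were 0.86, -2.31, -1.15, -0.59, -2.22, 1.18, -0.42 and -1.60 in exercised fish 1 to 8, against 0.00, 1.78, 2.84, 0.51, 2.24, 2.26, 1.88 and 0.30 in non-exercised fish 1 to 8. Of the exercised fish, 6 lay below every non-exercised fish, and exercised fish 1 and 6 lay within the non-exercised range. The log2 fold change was -2.26 ± 0.54 (SE), a signal 4.78-fold lower in exercised fish (limma, adjusted p = 0.017). It was detected (well above background) on 5 exercised and all 8 non-exercised arrays. Against the non-exercised fish, the exercised fish of slide 3 gave -2.28 (limma, adjusted p = 0.0484) and those of slide 4 gave -2.24 (limma, adjusted p = 0.0242), and the call held in each of the 16 fits that left out 1 fish (adjusted p 0.00711 to 0.0444) and under all 5 other scalings and background corrections. The difference was smaller without background correction (-1.76) and with normexp (-1.66). With the slide as a random block it was lost (limma, adjusted p = 0.476).

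The other polyamine genes did not pass the test over all 16 arrays with the percentile scaling. The antizymes, which bind ornithine decarboxylase and send it to the proteasome, had small differences. The log2 fold change was -0.13 ± 0.30 for oaz1a (limma, adjusted p = 0.808) and 0.01 ± 0.22 for oaz1b (limma, adjusted p = 0.990). Spermidine/spermine acetyltransferase (sat1a.1), which starts polyamine breakdown, ranged from 1.13 to 3.49 (median 2.06) in exercised and from 0.99 to 2.23 (median 1.39) in non-exercised fish. Its fold change was 0.66 ± 0.31 (limma, adjusted p = 0.249), and 3 exercised fish lay above all non-exercised fish. Spermine synthase (sms), chosen for naming after its values were seen, ranged from 2.37 to 4.16 (median 3.61) in exercised and from 1.76 to 3.82 (median 2.65) in non-exercised fish, a difference of 0.79 ± 0.33 (limma, adjusted p = 0.176). A second sms probe gave 0.80. With cyclic loess sms was called higher (limma, adjusted p = 0.0395). Spermidine synthase (srm) was well above background on no array, and sat1a.2 on none of the exercised and 2 of the non-exercised arrays, so no fold change is given for either.

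**Figure D2:**
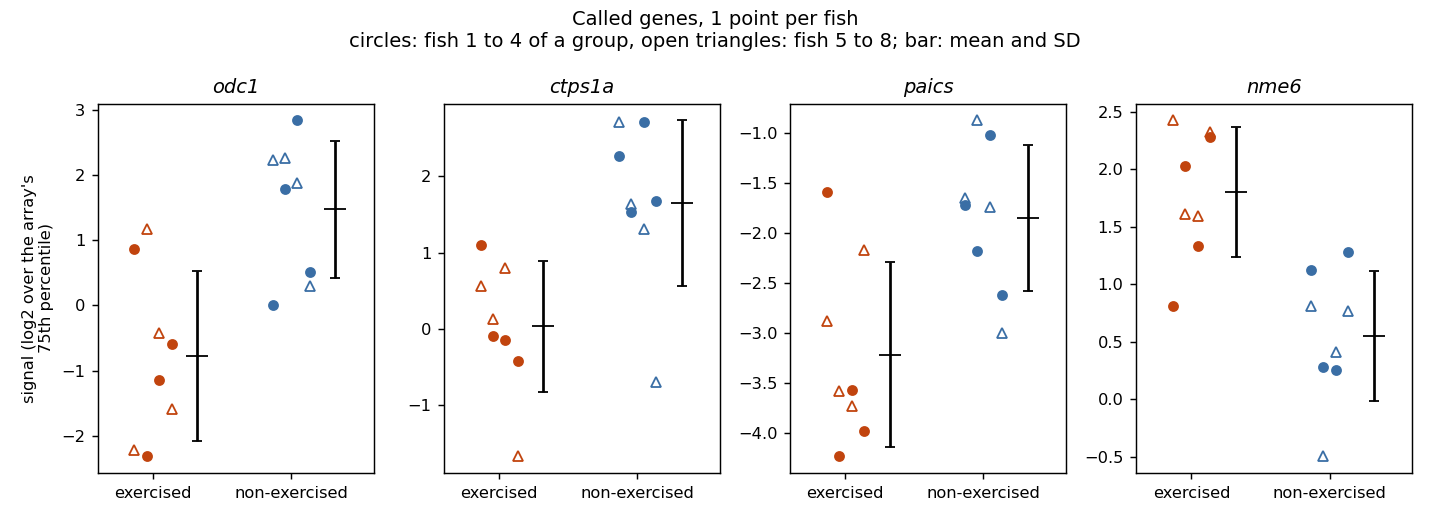
Signal of the 4 called genes in each fish (y axis, log2 relative to the array's 75th percentile), exercised left and non-exercised right, with the mean and SD of each group. In odc1, 6 of 8 exercised fish lay below all non-exercised fish, and in nme6, 7 of 8 lay above them.

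The nucleoside diphosphate kinase family, which passes phosphate between nucleoside triphosphates and diphosphates in its best known members, had the 1 gene called higher. The signals of nme6 were 0.82, 2.03, 1.33, 2.29, 2.43, 1.61, 1.59 and 2.33 in exercised fish 1 to 8, against 1.12, 0.28, 0.25, 1.28, 0.81, -0.50, 0.41 and 0.77 in non-exercised fish 1 to 8. Thus 7 exercised fish lay above every non-exercised fish, and exercised fish 1 within their range. The log2 fold change was 1.25 ± 0.30, or 2.38-fold (limma, adjusted p = 0.018), with the probe detected on all 16 arrays. It was called in each of the 16 fits that left out 1 fish (adjusted p 0.00592 to 0.0434) and lost with the slide as a random block (limma, adjusted p = 0.449). The exercised fish of slide 3 gave 1.06 (limma, adjusted p = 0.116) and those of slide 4 gave 1.44 (limma, adjusted p = 0.0161).

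Another member, nme2b.2, differed by 0.09 ± 0.34 (limma, adjusted p = 0.883), with 8.72 to 10.93 (median 10.08) in exercised and 8.87 to 10.44 (median 10.06) in non-exercised fish. Its close copy nme2b.1 had 6.53 to 7.07 (median 6.77) in exercised and 6.66 to 7.60 (median 7.34) in non-exercised fish, a difference of -0.50 ± 0.23 (limma, adjusted p = 0.246), which was called with cyclic loess (limma, adjusted p = 0.0478). With outlier spots left out, these values cover 7 fish of each group for nme2b.1, and 8 exercised and 7 non-exercised fish for nme2b.2. Whether the probe of either copy also binds RNA of the other was not tested. Of the remaining members, nme3 and nme7 had fold changes of 0.29 ± 0.32 and 0.38 ± 0.25 without a call. The probe of nme5 was above background on no array, and that of nme4 on 2 exercised and no non-exercised arrays.

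In pyrimidine synthesis, ctps1a, which makes CTP from UTP, had signals of 1.103, -0.09, -0.14, -0.42, 0.56, 0.13, 0.79 and -1.67 in exercised fish 1 to 8, against 2.26, 1.53, 2.71, 1.68, 2.72, 1.64, 1.31 and -0.70 in non-exercised fish 1 to 8. In each group fish 8 was the lowest. Without non-exercised fish 8 the groups would not overlap, whereas with it only 1 exercised fish lay below all non-exercised fish. The log2 fold change was -1.61 ± 0.46, or 3.06-fold lower in exercised fish (limma, adjusted p = 0.042). The call was close to the threshold: of the 16 fits that left out 1 fish it held in 3, those without exercised fish 1 or 7 or non-exercised fish 8 (adjusted p over all 16, 0.00506 to 0.0977). It held under the median shift but under none of the other 4 scalings and background corrections (adjusted p over the 5, 0.0346 to 0.0704), nor with the slide as a random block (limma, adjusted p = 0.596). UMP synthase (umps), an earlier enzyme of the pathway that forms UMP, was well above background on 4 arrays of each group and had a difference of -0.26 ± 0.69.

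In de novo purine synthesis, paics, which carries out successive steps of building the purine ring, was called lower with -1.36 ± 0.40, or 2.57-fold (limma, adjusted p = 0.049). Its signals were -4.23 to -1.59 (median -3.57) in exercised and -3.00 to -0.88 (median -1.73) in non-exercised fish, and 5 exercised fish lay below all non-exercised fish. The probe was dim, detected on 1 exercised and 4 non-exercised arrays, so that the size of the difference is uncertain. It was -0.76 without background correction and -0.71 with normexp, where the call was lost (limma, adjusted p = 0.116), as it was with the slide as a random block (limma, adjusted p = 0.646). The call was also lost with outlier spots kept (limma, adjusted p = 0.0513). A pair of further paics probes gave -0.81 (limma, adjusted p = 0.333) and -0.12 (limma, adjusted p = 0.857). Both were dim as well, detected on 1 exercised and 2 non-exercised arrays and on 1 array of each group. The call of the brightest probe held in 4 of the 16 fits without 1 fish, those without exercised fish 1 or 8 or non-exercised fish 4 or 8 (adjusted p over all 16, 0.0108 to 0.110). The enzyme gart of the same pathway had -0.84 ± 0.61 without a call, impdh1a was at -0.27 ± 0.57, and IMP dehydrogenase 2 (impdh2), the first step towards GMP, had 0.01 ± 0.30, with 1.80 to 2.97 in exercised and 1.64 to 3.60 in non-exercised fish.

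Of the 5 AMP deaminase and adenylosuccinate genes of the purine nucleotide cycle none was called over all 16 arrays with the percentile scaling and no block. With the replicate number as a block ampd1 was called higher (limma, adjusted p = 0.0492), and with slide 3 alone ampd3b (limma, adjusted p = 0.0159). In mean 4 were higher, with a median of 0.99 over the list beside 0.26 over all probes. Under each of the 5 other scalings and background corrections 4 were positive. At an unadjusted p under 0.05 there were 2 by limma, and the methods' t-test called 0 after Benjamini-Hochberg adjustment. Cyclic loess called adss1 higher (limma, adjusted p = 0.0349). Muscle AMP deaminase (ampd1), which turns AMP into IMP, had 6.58 to 8.29 (median 7.85) in 7 exercised fish and 4.98 to 7.59 (median 6.92) in non-exercised fish, with 1 exercised spot left out as an outlier. The difference was 1.04 ± 0.41 (limma, adjusted p = 0.159). Adenylosuccinate synthase 1 (adss1), the muscle enzyme that joins IMP to aspartate, had 6.08 to 7.88 (median 6.94) in 5 exercised fish and 4.30 to 7.00 (median 6.41) in non-exercised fish, a difference of 0.99 ± 0.49 (limma, adjusted p = 0.283) with 3 exercised spots left out.

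Adenylosuccinate lyase (adsl), which releases AMP and was named after its values were seen, had 5.89 to 7.40 (median 6.58) in exercised and 4.58 to 6.60 (median 5.82) in non-exercised fish, a difference of 0.77 ± 0.33 (limma, adjusted p = 0.190). A second adsl probe gave 0.76. For ampd1, adss1 and adsl alike, non-exercised fish 6 and 7 were the lowest of all fish, as the plot of uncalled genes shows. Non-exercised fish 3 also lay below every exercised value in each of these genes, as did non-exercised fish 5 and 8 in adsl. The remaining non-exercised fish lay within the exercised range. The 75th percentiles subtracted from the arrays of non-exercised fish 6 and 7 were 10.42 and 10.18 in log2 signal. They were 8.65 to 9.22 on the other non-exercised arrays and 8.69 to 10.69 on the exercised arrays. Whether this bears on the low values was not tested. The related adssl was the exception, at -0.40 ± 0.29.

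**Figure D3:**
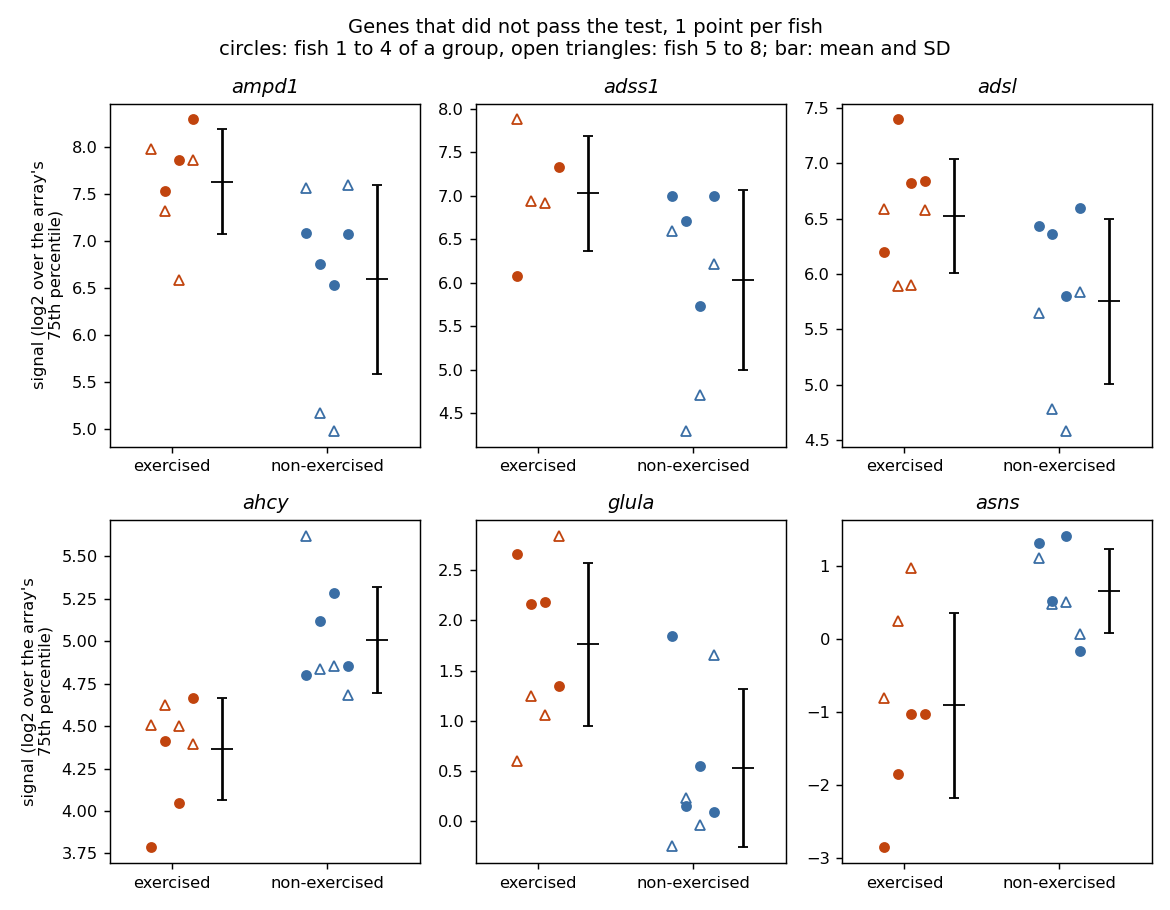
Signal of 6 genes that did not pass the test in each fish (y axis, log2 relative to the array's 75th percentile), exercised left and non-exercised right, with the mean and SD of each group. In ahcy the groups did not overlap (4.66 at most in exercised and 4.68 at least in non-exercised fish), whereas in ampd1, adss1 and adsl they overlapped. Above all non-exercised fish lay 4 of 7 exercised values in ampd1, 2 of 5 in adss1 and 3 of 8 in adsl.

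Adenosylhomocysteinase (ahcy), which clears the product of methyl transfer in the methionine cycle, was the 1 member gene whose groups did not overlap. Its signals were 3.79, 4.41, 4.05, 4.66, 4.50, 4.62, 4.50 and 4.39 in exercised fish 1 to 8, against 4.80, 5.12, 5.28, 4.85, 5.62, 4.83, 4.86 and 4.68 in non-exercised fish 1 to 8. All 8 exercised fish lay below all 8 non-exercised fish, beside 0.42% of all named genes without overlap and lower, or 0.853% of those detected on all 16 arrays. The log2 fold change was -0.64 ± 0.22, or 1.56-fold lower in exercised fish, and did not pass the threshold (limma, adjusted p = 0.095). The other 2 ahcy probes gave -0.63 and -0.75. The gene was called lower under 3 of the 5 other scalings and background corrections and by the methods' t-test with Benjamini-Hochberg adjustment. It was also called lower by limma among probes detected on at least 8 arrays and among those detected on all 16.

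All 5 genes of the methionine cycle and creatine synthesis had negative fold changes, with a median of -0.41. The number with a positive sign was 2 with cyclic loess and 1 without background correction or with normexp. Limma called none, with 2 at an unadjusted p under 0.05, and the methods' t-test called 1 after adjustment, which was ahcy. The median shift called gatm and ahcy lower (limma, adjusted p = 0.0469 and 0.0477). Glycine amidinotransferase (gatm), the first step of creatine synthesis, had 2.12 to 5.39 (median 4.06) in exercised and 4.19 to 5.79 (median 4.93) in non-exercised fish, a difference of -1.08 ± 0.42 (limma, adjusted p = 0.146). Further gatm probes gave -1.09 and -0.92. The adenosylhomocysteinase-like genes ahcyl1 and ahcyl2b were both at -0.08, with standard errors of 0.34 and 0.31, and the adenosylmethionine synthetase mat1a was at -0.41 ± 0.59.

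Among the genes of glutamate, aspartate and glutamine, a glutamine synthetase and asparagine synthetase came closest to the threshold, in opposite directions. Glutamine synthetase glula, which joins ammonia to glutamate, had 0.60 to 2.84 (median 1.75) in exercised and -0.25 to 1.85 (median 0.19) in non-exercised fish, with 4 exercised fish above all non-exercised fish. The difference was 1.23 ± 0.39, or 2.35-fold (limma, adjusted p = 0.066), and it was called in 3 of the 16 fits without 1 fish, those without exercised fish 5 or non-exercised fish 1 or 8 (adjusted p over all 16, 0.0351 to 0.129). Its paralog glulb differed by 0.26 ± 0.44 (limma, adjusted p = 0.737). The difference between these paralogs was not tested.

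Asparagine synthetase (asns), which makes asparagine with glutamine as the nitrogen donor, had -2.86 to 0.97 (median -1.03) in 7 exercised fish and -0.17 to 1.41 (median 0.51) in non-exercised fish. The difference was -1.57 ± 0.46 (limma, adjusted p = 0.053), with 5 exercised fish below all non-exercised fish. The spot of exercised fish 8 was left out as an outlier. With outlier spots kept the difference was -1.22 (limma, adjusted p = 0.210). With them left out, asns was called without exercised fish 6 or 7 or non-exercised fish 4 or 8 (adjusted p over all 16 such fits, 0.0137 to 0.117). Mitochondrial aspartate aminotransferase was measured as the paralogs got2a, with 0.91 ± 0.39 (limma, adjusted p = 0.191), and got2b, with 0.28 ± 0.28. Glutamate dehydrogenases glud1a and glud1b had -0.35 ± 0.29 and -0.21 ± 0.28. A second, dimmer glud1b probe gave -0.94 ± 0.34 (limma, adjusted p = 0.114), with 5 exercised fish below all non-exercised fish. Glutaminase (glsa) was above background on no array. Of these 8 genes limma called none, with 3 at an unadjusted p under 0.05, and the methods' t-test called 0 after adjustment. Other settings of limma did call some: glula and got2a were higher with cyclic loess (adjusted p = 0.0442 and 0.0449), asns was lower with the median shift (adjusted p = 0.0326), and both glula and asns passed among probes detected on at least 8 arrays (adjusted p = 0.0336 and 0.0283).

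Some members split between the exercised slides, which the group means hide. Mitochondrial methylenetetrahydrofolate dehydrogenase (mthfd2), which feeds one-carbon units from serine and was named after its values were seen, had 0.16, 0.95, 0.79 and 1.62 in exercised fish 1 to 4 on slide 3 and 2.78, 3.21, 2.99 and 3.12 in exercised fish 5 to 8 on slide 4, against 1.24 to 2.07 in all 8 non-exercised fish. The 4 fish of slide 4 lay above, and 3 of the 4 fish of slide 3 below, every non-exercised fish. Its fold change over all fish was 0.20 ± 0.43, while slide 3 alone gave -0.87 (limma, adjusted p = 0.120) and slide 4 alone gave 1.28 (limma, adjusted p = 0.0139). In named genes, 2.01% were called higher and 2.01% lower with slide 3 alone, and 19.7% higher and 3.78% lower with slide 4 alone. All 3 mthfd2 probes had the same split, with means of 0.88, 0.52 and 0.25 on slide 3 and 3.02, 2.53 and 2.45 on slide 4.

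For gatm the values were 2.12, 3.14, 2.94 and 3.93 in exercised fish 1 to 4 and 5.39, 4.19, 5.04 and 4.71 in exercised fish 5 to 8, against 4.19 to 5.79 in non-exercised fish. Slide 3 alone gave -1.98 (limma, adjusted p = 0.00874) and slide 4 alone -0.18 (limma, adjusted p = 0.723), again alike in all 3 probes. The exercised slides did not overlap in 2 of the 22 member genes detected on all 16 arrays, mthfd2 and gatm (9.09%), beside 4.32% of 1875 such named genes. The mean on slide 4 was higher than that on slide 3 by 2.15 in mthfd2 and by 1.80 in gatm.

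Among the spots kept, asparagine synthetase and a second AMP deaminase had a like split. For both genes the spot of exercised fish 8, on slide 4, was left out as an outlier. For asns, slide 3 alone gave -2.35 (limma, adjusted p = 0.00578) and slide 4 alone -0.52 (limma, adjusted p = 0.389). The AMP deaminase ampd3b, named after its values were seen, had 1.28, 2.83, 2.09 and 1.14 in exercised fish 1 to 4 and -0.10, -1.34 and 0.06 in exercised fish 5 to 7, against -1.25 to 0.66 in non-exercised fish. Here slide 3 was the higher one among the spots kept, with 2.07 (limma, adjusted p = 0.0159) against -0.23 (limma, adjusted p = 0.749) on slide 4. The fold change of ampd3b over both slides was 1.08 ± 0.53 (limma, adjusted p = 0.266). With outlier spots kept it was 1.31 ± 0.53 (limma, adjusted p = 0.169). Whether the slides split with those spots kept was not tested. The labels do not say whether the fish of the exercised slides differed in anything other than the slide and the scan.

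**Figure D4:**
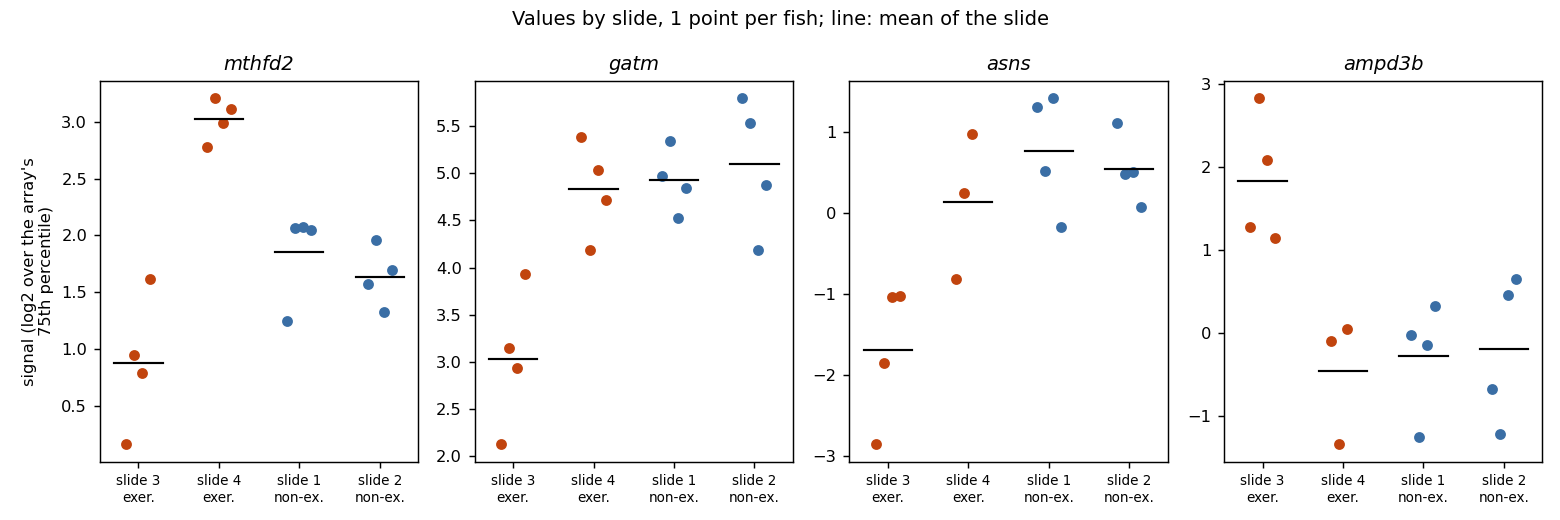
Signal of 4 genes by slide (y axis, log2 relative to the array's 75th percentile), with the exercised slides 3 and 4 left of the non-exercised slides 1 and 2; lines are slide means. In mthfd2 the exercised means were 0.88 on slide 3 and 3.02 on slide 4, on either side of the non-exercised fish. In asns and ampd3b the spot of exercised fish 8 was left out as an outlier and has no point.

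The remaining groups gave no call. Branched-chain aminotransferase 2 (bcat2), the first step of branched-chain amino acid breakdown in muscle, differed by 0.20 ± 0.31, and the kinase bckdk, which switches off the next enzyme, by 0.37 ± 0.31, and the brightest bcat1 probe was detected on no array. Of the 3 genes of this group limma called none, also at an unadjusted p under 0.05, and so did the methods' t-test. The serine synthesis enzyme phgdh was detected on 2 exercised and 5 non-exercised arrays, with -0.21 ± 0.85. Its neighbours psat1 (-0.41 ± 0.40), shmt1 (-0.88 ± 0.57) and mthfd1b (-0.57 ± 0.42) did not pass either, and mthfd2l was detected on 1 exercised array only. Arginase (arg1) was above background on 1 array of each group, and the argininosuccinate synthase ass1 on 1 exercised array.

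Signal depth limited what could be seen. Of the 49 brightest probes, 22 were detected on all 16 arrays, 41 on some arrays of both groups, 4 in 1 group only and 4 on no array. Of 19 genes with several probes, 17 had the same sign in all probes, and none of the 24 further probes was called by limma. Among the called genes only paics had several probes, whereas odc1, ctps1a and nme6 were measured by 1 probe each. The SD among exercised fish was larger than among non-exercised fish in 29 genes, with medians of 0.86 in exercised and 0.64 in non-exercised fish. All 4 measured blood markers (of 6) were higher in mean in exercised fish, with a median of 1.15, though limma called none (3 at an unadjusted p under 0.05). With outlier spots included, their mean level per fish was 3.76 to 6.07 in exercised and 2.02 to 4.52 in non-exercised fish. Their part in the results above was not tested. The 3 measured liver markers were detected on at most 3 arrays of a group, and the slow muscle markers tnnc1b and tnni1b differed by -0.16 each, without a call. The skin markers krt4, krt5 and krt8 were detected on all 16 arrays. Of the 5 skin markers 4 were higher in mean in exercised fish (median 0.25), and limma called none. The highest was krt4, at 0.80 ± 0.37 (limma, adjusted p = 0.246). The part of skin in the results was not tested. Of 6 endothelium markers 2 were measured, with cdh5 detected on no array and tek at 0.003 ± 0.27.

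Genes of the same pathways outside the rule were read from a list of 131 symbols, of which 62 had a named probe. Glycine decarboxylase (gldc), which splits glycine and passes on a one-carbon unit, was called higher, and no other gene of the list passed the test (11 had an unadjusted p under 0.05, 4 higher and 7 lower, and the methods' t-test called 2 after adjustment). The signal of gldc was -2.11 to -0.50 (median -1.17) in 7 exercised fish, with 1 exercised spot left out as an outlier. It was -4.005 to -2.32 (median -2.94) in non-exercised fish. Among the spots kept the groups do not overlap, as in 0.756% of all named genes that were higher. The difference was 1.79 ± 0.30 (limma, adjusted p = 0.0019), with detection on 6 exercised arrays and 1 non-exercised array. In azin1b, a polyamine gene of the list detected on all 16 arrays, all 8 exercised fish lay below all 8 non-exercised fish. Its signals were 2.42 to 2.94 in exercised and 2.95 to 3.50 in non-exercised fish. Such a lower group without overlap was found in 0.853% of named genes detected on all 16 arrays. The difference was -0.47 ± 0.19, without a call (limma, adjusted p = 0.179). The purine salvage enzyme hprt1 had -1.10 ± 0.33 (limma, adjusted p = 0.052), and the pyrimidine kinases cmpk and uck2b had -1.22 ± 0.37 and -1.28 ± 0.41 (limma, adjusted p = 0.053 and 0.071). The median over the 62 genes was 0.05.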

How the data were processed

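Total RNA of fast muscle from single fish (200 ng) was Cy3-labelled for 16 Agilent arrays, 1 per fish, and the authors quantified the spots with Feature Extraction 10.7.3.1. The deposited scanner files hold an intensity per spot on a linear scale, a background-subtracted processed signal and flags for outliers, saturation and signal well above background. A deposited table of the authors' own fold changes and p-values was not used. The replicates are individual fish.

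Here log2 of the processed signal was taken and each array's 75th percentile over the 43803 non-control probes subtracted. Outlier spots (49 to 892 per array) were left out, and 0 spots were saturated. Groups were compared with lmFit and eBayes of limma 3.58.1 (R 4.3.3), with Benjamini-Hochberg adjustment over all probes and a threshold of 0.05. The scripts were tested on simulated data. Detection was compared by an exact permutation test. A member probe above background on no array of 1 group only gave no fold change, since the bounds were under 1. For member probes above background on no array of either group no bound was taken and no fold change is given.

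Named were the called genes, a fixed list of enzymes, genes whose probes differed in call and genes without overlap between the groups; other genes named with values were added after these were seen. The members and lists were chosen with earlier results of these data known. Alternatives were other scalings and background corrections (normexp offset 50), outlier spots kept, filters on detection (8 or 16 arrays), the mean over probes, the slide as a random block, each exercised slide alone, the replicate number as a block, the methods' t-test (unadjusted p under 0.01, or adjusted) and each fish left out. Number of arrays limits the precision. The build of the array design differs from that of the reference, so no coordinates are given. Figures used Python with matplotlib.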

Additional observations from a re-analysis of the deposited data

Results flagged for a closer look

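Among the 29 genes named by the rule or added later, the highest and lowest fish of each group were checked for a gap to the next fish (58 groups), and 3 groups had a fish far from the rest, where chance gives about 1 in 20. In oaz1b, exercised fish 1 had the lowest signal (3.88, with the next at 4.49). In umps, exercised fish 1 had the highest (2.61, with the next at -0.47). In ctps1a, non-exercised fish 8 had the lowest (-0.70, with the next at 1.31), and without it ctps1a stayed called.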

How the results depend on the processing

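Of 28 named genes with a fold change, 17 kept their sign under every alternative. Called genes numbered 1 higher and 3 lower by limma. With a median shift 1 was higher and 6 were lower, and the median of the members was -0.24. Among all 43803 probes the median shift called 1408 higher and 1426 lower. With outlier spots kept 1 was higher and 2 were lower, beside 1975 higher and 747 lower among all probes. There paics was no longer called (limma, adjusted p = 0.0513). Cyclic loess gave 5 higher and 4 lower, and normexp 1 higher and 1 lower. Among all probes cyclic loess called 2674 higher and 1549 lower, and normexp 489 higher and 284 lower. Probes above background on at least 8 arrays gave 2 higher and 4 lower (asns, ahcy, odc1 and ctps1a), beside 1091 higher and 1550 lower of 17516 such probes. Those above background on all 16 arrays gave 2 higher and 1 lower (ahcy), beside 675 higher and 661 lower of 7948. With the slide as a random block limma called 0 higher and 0 lower (1 and 4 at an unadjusted p under 0.05). Slide 4 alone gave 9 higher, of which 7 were genes whose brightest probe was above background on at most 2 arrays. The replicate block gave 3 higher (ampd1, glula and nme6) and 2 lower (odc1 and ctps1a), beside 2256 higher and 991 lower among all probes. Fish of the same number correlated at -0.02 to 0.44, so the numbers were not taken to pair the fish, and 3 of 8 matched their own number best. The unadjusted t-test of the methods gave 2 higher and 6 lower, beside 2883 higher and 1820 lower of all 43803 probes. Leaving out 1 fish gave 1 to 2 higher and 1 to 4 lower; 1 was lower without exercised fish 2, 3, 4 or 5 or non-exercised fish 1, 2, 3, 5, 6 or 7.

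The sign turned under the following settings, and the cause was not tested. With a median shift this held for bcat2 (-0.053), impdh2 (-0.24), nme2b.2 (-0.15), oaz1b (-0.24) and mthfd2 (-0.047), with quantile normalization for nme2b.2 (-0.23), with cyclic loess for nme2b.2 (-0.27) and oaz1b (-0.0054), and without background correction or with normexp for impdh2 (-0.062 and -0.057). Slide 3 alone turned oaz1b (-0.15), umps (0.076) and mthfd2 (-0.87), and slide 4 alone ampd3b (-0.23), bckdk (-0.051), impdh2 (-0.091), oaz1a (0.13) and phgdh (0.00037). Without 1 fish, impdh2 ranged from -0.089 to 0.19, nme2b.2 from -0.066 to 0.26, oaz1b from -0.063 to 0.10, glulb from -0.028 to 0.52, umps from -0.84 to 0.12 and phgdh from -0.78 to 0.23. The median of all probes was 0.26, and between -0.08 and 0.01 under the other scalings.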
